A study of Mus musculus with 30 samples.

Results

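The genes described here encode proteins of the synaptic vesicle, of the machinery that fuses it with the membrane, of the active zone, of trans-synaptic adhesion and of the postsynaptic scaffold. A list of 40 genes was drawn up by name, and a gene was kept where a transcript cluster of the array carried its symbol alone. In this way 36 of the 40 were measured, each by 1 cluster, among 14860 genes of the platform with such a cluster. Sv2c, Vamp1, Shank1 and Shank2 had none, and Nrxn2 had values on the Dlx5 arrays but not on the time-course arrays, which leaves 35 genes there. Samples were dissected from embryos of an F1 C57Black6 x DBA background and hybridized to 30 Affymetrix exon arrays. In the time course, wild type throughout, the epithelial fraction (EPI) and the adjacent mesenchymal fraction (MES) were taken from the olfactory placode (OPL) at E11.5, from the olfactory epithelium (OE) at E12.5, and from the OE and the vomeronasal organ (VNO) at E14.5, with 3 arrays in each of the 8 groups. The labels name the E12.5 tissue olfactory placode. A further 6 arrays compared the OE at E12.5 of wild type (WT) embryos with that of embryos null for Dlx5, a homeobox gene, 3 arrays each, and for these the labels give no fraction. The null allele is a lacZ insertion. Each sample was a pool of at least 4 embryos of 1 genotype. In the mutant all epithelium lining the nose was taken, since OE was not separable by eye from respiratory epithelium, so genotype and dissected tissue cannot be told apart. EPI samples keep some attached mesenchyme, and MES samples can hold the olfactory axons and migrating neurons that run through it. In such bulk samples fewer cells of a type and less RNA per cell cannot be told apart.

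At a chemical synapse, vesicles filled with transmitter dock at the active zone, a scaffold that holds them close to calcium channels. Fusion is driven by the SNARE proteins Snap25 and syntaxin on the plasma membrane and synaptobrevin on the vesicle, and it is timed by the calcium sensor synaptotagmin and by complexin. Neurexins and neuroligins bridge the cleft to the receptor scaffold on the other side. Olfactory sensory neurons send their axons from the OE through the nasal mesenchyme to the olfactory bulb, where they form glutamatergic synapses, and vomeronasal neurons and GnRH neurons follow related routes.

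The 5 promoters shown next belong to members that were called in at least 1 comparison below, 3 of them with and 2 without the E-box CAGCTG. For each gene, the 250 bases before the first listed transcription start are given 5' to 3' on the gene's own strand, from RefSeq on GRCm38.p6, at chr13:110280207-110280456, minus strand (Rab3c), chr5:135023232-135023481, plus strand (Stx1a), chr5:108550028-108550277, minus strand (Cplx1), chr5:14514668-14514917, plus strand (Pclo) and chrX:7638330-7638579, plus strand (Syp). Capitals mark the E-box CAGCTG, a core bound by basic helix-loop-helix factors, which is its own reverse complement.
Rab3c: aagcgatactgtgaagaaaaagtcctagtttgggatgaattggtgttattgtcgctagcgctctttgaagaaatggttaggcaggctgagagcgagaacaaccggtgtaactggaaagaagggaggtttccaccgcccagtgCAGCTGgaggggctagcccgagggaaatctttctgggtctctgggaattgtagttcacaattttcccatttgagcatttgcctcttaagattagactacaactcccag
Stx1a: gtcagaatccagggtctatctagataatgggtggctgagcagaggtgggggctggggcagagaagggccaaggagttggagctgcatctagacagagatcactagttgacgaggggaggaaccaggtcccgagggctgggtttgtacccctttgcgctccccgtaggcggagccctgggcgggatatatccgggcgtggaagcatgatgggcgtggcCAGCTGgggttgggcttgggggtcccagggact
Cplx1: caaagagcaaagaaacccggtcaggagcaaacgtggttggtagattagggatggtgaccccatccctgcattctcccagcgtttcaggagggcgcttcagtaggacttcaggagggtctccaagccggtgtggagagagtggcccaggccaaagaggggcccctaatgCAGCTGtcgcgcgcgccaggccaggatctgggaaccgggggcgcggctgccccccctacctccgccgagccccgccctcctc
Pclo: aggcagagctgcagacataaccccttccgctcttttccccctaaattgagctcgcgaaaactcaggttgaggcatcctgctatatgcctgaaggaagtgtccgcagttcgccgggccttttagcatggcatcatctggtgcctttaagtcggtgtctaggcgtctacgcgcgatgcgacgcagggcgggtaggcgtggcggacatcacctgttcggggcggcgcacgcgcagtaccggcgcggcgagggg
Syp: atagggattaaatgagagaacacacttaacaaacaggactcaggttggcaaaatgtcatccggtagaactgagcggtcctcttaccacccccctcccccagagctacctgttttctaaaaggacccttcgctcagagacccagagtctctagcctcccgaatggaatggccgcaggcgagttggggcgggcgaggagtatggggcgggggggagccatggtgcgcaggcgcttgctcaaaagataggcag
Rab3c, Stx1a and Cplx1 hold the letters and Pclo and Syp do not.

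Of the 36 measured members, 28 had such a window, 43 windows in all. CAGCTG lay in 9 of the 43 windows (20.9%), against 13% of all 32851 windows of the same length. The homeodomain core TAATTA was found in 0 of the 43, against 4.84% of all windows, and TAATTG, read on both strands, in 4 (9.3%), those of Dlg2, Homer1 and Nrxn3, against 7.17%. The left part TTCAGCACC of the site of the neuronal repressor REST, on either strand, lay in 2 windows (4.65%), of Nlgn1 and Syn1, against 0.301% of all. The cyclic AMP response element TGACGTCA lay in 1 window (2.33%), of Syn1, against 1.55%, and its core TGACG, which the full element contains, in 7 (16.3%) against 17.8%. These are matches of letters and were not tested.

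Values are log2 signals after quantile normalization, and a level of one gene cannot be set against that of another. The deposited arrays differed in their medians between groups, from 6.41 to 6.44 in the EPI OPL at E11.5 and from 6.96 to 7.06 in the EPI OE at E12.5, which is why they were brought to 1 distribution before testing. A gene is called where limma gave a Benjamini-Hochberg adjusted p of at most 0.05 and the log2 difference was at least 0.9 in size. As the array medians weigh on the counts, those on the deposited scale are given beside them. The 2 array sets were normalized apart, and no level is compared between them.

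A set of arrays stood apart for these genes. In the EPI OE at E14.5, replicate 2 had the highest value for 33 of 35 members (94.3%), whereas it was highest for 37.7% of all genes, and replicate 3 had the lowest for 31 (88.6%) against 37.4%. The members' summed linear signal was 8577, 14005 and 6455 in replicates 1 to 3. The 13 neuron markers measured, among them Tubb3, Dcx and Gap43, summed to 9317, 16973 and 7310 on the same arrays, while the 10 markers of mature olfactory neurons summed to 1431, 1616 and 1729 and the 8 epithelial markers to 8612, 7588 and 10260. The part of these cells in the results was not tested. In the Dlx5-null group, replicate 1 had the lowest value for 21 of 36 members (58.3%) against 31.8% of all genes. WT replicate 1 had the same count, 21 of 36 (58.3%) against 35.3%, so this share does not set the mutant array apart. MES OPL E11.5 replicate 1 and MES OE E12.5 replicate 3 were each lowest for 21 of 35 (60%), against 44.3% and 38.4%. In the heat map of the members, replicate 2 of the EPI OE at E14.5 forms a single dark column.

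**Figure D1:**
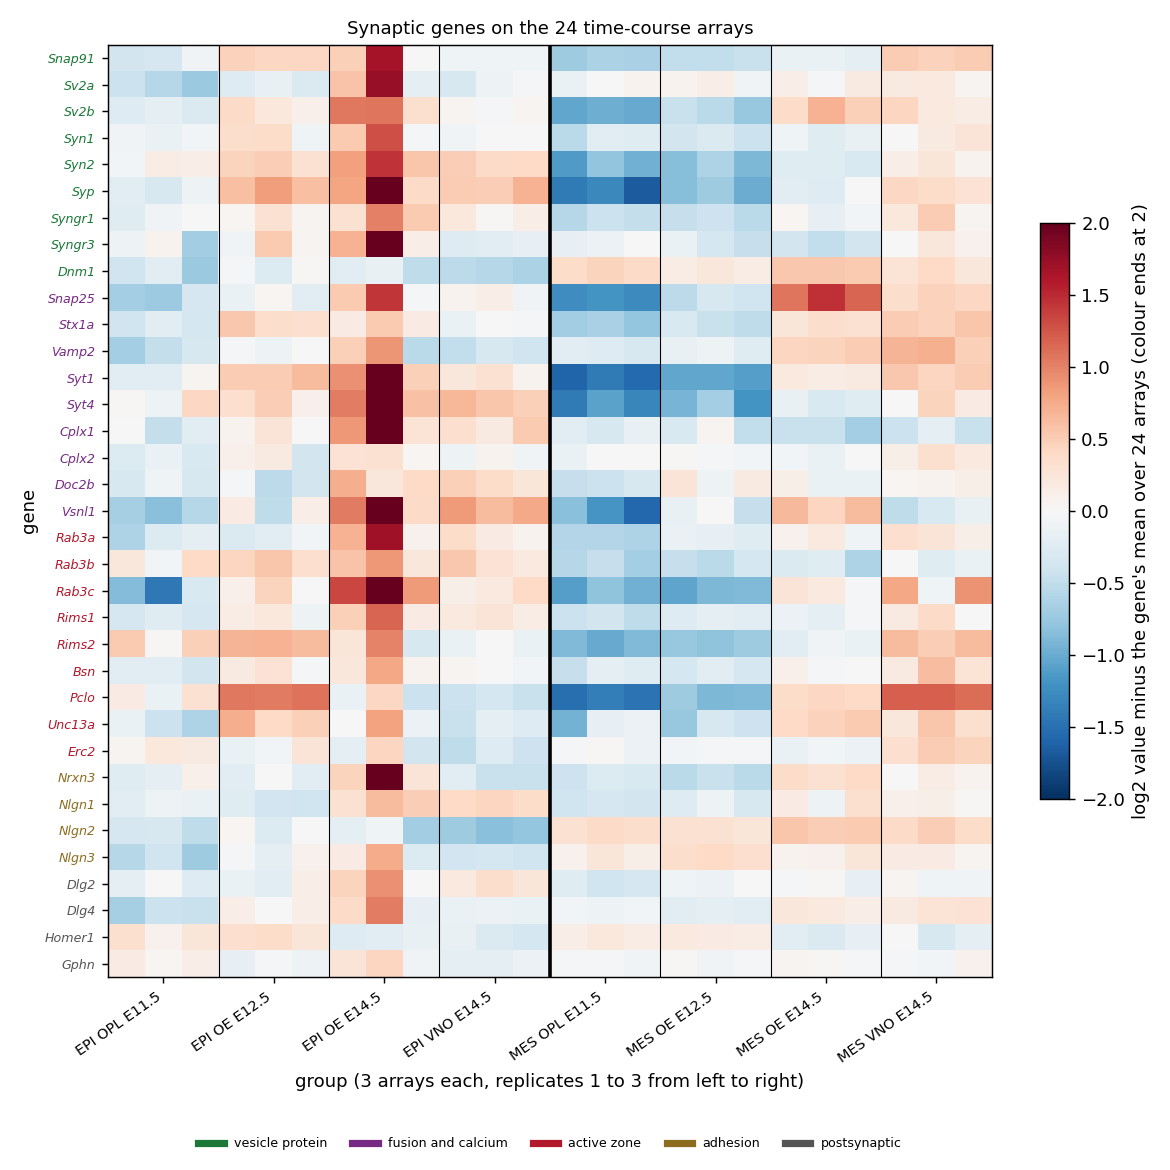
Heat map of 35 synaptic genes (rows, gene names coloured by role) on 24 arrays (columns, 3 per group in the order replicate 1 to 3). Colour gives the log2 value minus the gene's mean over the 24 arrays. The second column of the EPI OE at E14.5 is the highest of its group for 33 of the 35 genes. The MES columns run from blue at E11.5 to red at E14.5 for Pclo, Syt1 and Snap25, while Syp turns clearly red in the MES VNO only.

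Within the EPI, 2 of the 35 members were called higher at E12.5 than in the OPL at E11.5, against 1.37% of all 14804 genes tested, and both belong to the active zone. Pclo encodes piccolo, a giant scaffold protein that organizes vesicles at the active zone, and Unc13a encodes Munc13-1, which primes docked vesicles. Pclo read 7.64, 7.35 and 7.79 at E11.5 and 8.54, 8.52 and 8.57 at E12.5. It rose by 0.95 (standard error 0.13, adjusted p = 0.0141). Unc13a read 7.48, 7.17 and 6.99 and then 8.33, 8.0 and 8.08, and rose by 0.93 (standard error 0.16, adjusted p = 0.02). In both genes all E12.5 arrays lay above all E11.5 arrays. Other large differences were not called. Rab3c, a small GTPase of the vesicle surface, had the largest difference, 1.05 with a standard error of 0.29 (adjusted p = 0.0591). Syp, or synaptophysin, an abundant vesicle membrane protein, gave 0.89, Stx1a, or syntaxin, 0.72, and Snap91, a clathrin adaptor, 0.69, each below the size limit.

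None was called lower by limma, against 1.84% of all genes, with 0 lower at an unadjusted p under 0.05 and 0 by Rank Products. Of all genes, 36.7% had such a p in either direction. The median member differed by 0.35 and the median of all genes by 0.02. On the deposited scale 19 members were called higher, against 17.6% of all genes, and there the median of all genes also stood 0.54 higher, and Rank Products called 0. Without EPI OE E12.5 replicate 1, or without EPI OPL E11.5 replicate 2, the count was 0, and without replicate 3 of either group it was 3. Of the other synaptic genes, a separate list of which 68 were measured, 2 were called higher: Ap3b2, the neuronal subunit of the AP-3 adaptor, by 0.98, and Unc13b, a paralogue of Unc13a, by 0.96. Beside these, 2 of 13 neuron markers were called higher, and the neuron sum went from 4874 to 5923 at E11.5 to 8490 to 8812 at E12.5. Of other markers, 1 of 8 for mesenchyme was called higher, and 4 of 6 for red cells and 1 of 6 for skeletal muscle lower. The part of these cells was not tested.

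By E14.5 the EPI OE had 4 members called higher than the OPL at E11.5, against 9.44% of all genes, so that their share, 4 of 35, was near the background. They were Rab3c, Vsnl1, Snap25 and Sv2b. Rab3c read 3.95, 3.39 and 4.50 at E11.5 and 6.14, 7.68 and 5.66 at E14.5, and rose by 2.55 (standard error 0.56, adjusted p = 0.017). As deposited its EPI OPL values, 2.92 to 4.0, were spread and lay well below the array medians of that group, 6.41 to 6.44. Vsnl1, a neuronal calcium sensor also called visinin-like 1, read 5.84, 5.68 and 5.95 and then 7.55, 8.55 and 6.89, a rise of 1.85 (standard error 0.40, adjusted p = 0.0166). The E14.5 arrays were spread widely in both genes, with replicate 2 highest, and still did not overlap those at E11.5. Snap25, the plasma membrane SNARE, read 6.37, 6.33 and 6.72 and then 7.58, 8.48 and 7.04, and rose by 1.23 (standard error 0.36, adjusted p = 0.0416). Sv2b, a vesicle glycoprotein of the SV2 family, read 4.98, 5.04 and 4.94 and then 6.27, 6.30 and 5.54, and rose by 1.05 (standard error 0.22, adjusted p = 0.015). Of these 4 genes Sv2b alone had replicates 1 and 2 near each other.

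Larger differences than that of Sv2b missed the call where the replicates were spread. Syt1, the calcium sensor synaptotagmin 1, read 7.39, 7.40 and 7.66 at E11.5 and 8.53, 10.13 and 8.09 at E14.5, a difference of 1.43 with a standard error of 0.51 (adjusted p = 0.0698). Cplx1, or complexin 1, differed by 1.36 (adjusted p = 0.0704) and Sv2a by 1.29 (adjusted p = 0.0733). In all, 14 members differed by at least 0.9, the median member by 0.76 and the median of all genes by 0.25. Without replicate 3 of the EPI OE at E14.5, 17 members were called higher. Without replicate 2, or without replicate 1, 3 were called, namely Sv2b, Vsnl1 and Rab3c, and without EPI OPL E11.5 replicate 1, 0 were. For all fits with 1 array left out, the share of all genes called was not counted, so these counts have no background beside them. The deposited scale gave 14, against 14% of all genes, with the median of all genes 0.32 higher, and Rank Products gave 2, against 1.97%. None was called lower by limma, against 1.91% of all genes (1 at an unadjusted p under 0.05, 0 by Rank Products). Such a p was found for 49.2% of all genes in either direction. From the other synaptic genes 8 of 68 were called higher, among them Lrrtm1, which encodes a postsynaptic adhesion protein, by 1.90, the clathrin light chain Cltb by 1.64 and Lrrtm3 by 1.62. With them 6 of 13 neuron markers, 7 of 10 mature olfactory neuron markers, 5 of 8 mesenchyme markers and 6 of 6 skeletal muscle markers were called higher, and the part of these cells was not tested.

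The EPI VNO at E14.5 had 2 members called higher than the OPL at E11.5, against 10.3% of all genes, with close replicates in the VNO. Vsnl1 read 7.37, 7.14 and 7.26, all above the OPL arrays, and rose by 1.44 (standard error 0.11, adjusted p = 3.80e-04). Rab3c read 4.93, 5.0 and 5.22 and rose by 1.10 (standard error 0.28, adjusted p = 0.0199), from the same low and spread OPL values as above. The other named genes stayed under the size limit: Syp differed by 0.78, Snap25 by 0.63, the calcium sensor Doc2b by 0.60 and Cplx1 by 0.58. Syt1 at 7.84, 7.92 and 7.69 and Sv2b at 5.28, 5.19 and 5.28 lay above all their OPL arrays, by 0.33 and 0.26. None was called lower by limma, against 2.2% of all genes (6 at an unadjusted p under 0.05, 0 by Rank Products). Such a p was found for 58.8% of all genes in either direction. The deposited scale gave 6 higher, against 20.5% of all genes, with the median of all genes 0.45 higher. Rank Products gave 0, and leaving out 1 array left 1 or 2 called. With these genes 4 of 13 neuron markers, 6 of 10 mature olfactory neuron markers, 6 of 8 mesenchyme markers, 6 of 6 skeletal muscle markers and 2 of 8 epithelial markers were called higher, and 1 neuron marker and 3 of 6 red cell markers lower. The part of these cells was not tested.

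Between E12.5 and E14.5 in the EPI OE, 1 member was called, and it was lower. Pclo went from 8.54, 8.52 and 8.57 to 7.35, 7.89 and 7.05, with no overlap, and fell by 1.11 (standard error 0.22, adjusted p = 0.0134), against 1.27% of all genes called lower. This call held without any 1 of the 6 arrays and on the deposited scale, where 6.22% of all genes were called lower, while Rank Products did not make it. None was called higher by limma, against 9.81% of all genes (6 at an unadjusted p under 0.05, 0 by Rank Products, 6 called without EPI OE E14.5 replicate 3 and 1 without replicate 2). Of all genes, 47.3% had such an unadjusted p in either direction. The largest positive differences were those of Rab3c, 1.50 (adjusted p = 0.0645), Vsnl1, 1.23 (adjusted p = 0.0713), and the adhesion gene Nrxn3, 1.17 (adjusted p = 0.147), followed by Rab3a at 1.01 and Cplx1 at 1.01. Snap25 read 6.91, 7.09 and 6.82 at E12.5, Syt1 8.12, 8.12 and 8.24, Sv2b 5.60, 5.44 and 5.33, and Vsnl1 6.67, 6.01 and 6.65. For each of these 4 genes the E12.5 mean lay between the means at E11.5 and E14.5. For Sv2b this depends on the scale, since its deposited means were 4.47 at E11.5, 5.67 at E12.5 and 5.60 at E14.5. The active zone gene Unc13b, of the other synaptic list, was called lower too, by -0.99, while 10 of that list were called higher, led by Cltb at 1.68 and Lrrtm3 at 1.47. Markers called higher on these arrays were 7 of 10 for mature olfactory neurons, 2 of 13 for neurons, 3 of 8 for mesenchyme, 6 of 6 for skeletal muscle and 1 of 8 for epithelium. In these lists 0 were called lower, and the part of these cells was not tested.

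Set against the EPI OE at the same age, the EPI VNO had lower values for all 35 members, but none was called. The median difference was -0.50, against -0.02 over all genes, and 15 members had VNO arrays all below the OE arrays, against 16% of all genes. By limma at an unadjusted p under 0.05 there were 7 lower and 0 higher, Rank Products gave 0, and of all genes 15.3% had such a p and 0% were called in either direction. The 6 largest were Rab3c (-1.45), Nrxn3 (-1.40), Syngr3 (-1.21), Syt1 (-1.10), Sv2a (-0.85) and Snap91 (-0.79), with adjusted p from 0.284 to 0.41. The OE arrays of this comparison are those whose replicates 2 and 3 stood apart. Without replicate 2, 32 of the 35 were negative with a median of -0.23, and Rab3c was at -0.85 and Syt1 at -0.49. Without replicate 3 all 35 were negative with a median of -0.72, and these genes were at -1.87 and -1.51. No member was called in either case. The lower values were not particular to the members. The neuron markers had a median of -0.58, with 3 of 13 positive, and summed to 6458 to 6959 in the VNO and 7310 to 16973 in the OE. The 68 other synaptic genes had a median of -0.26, with 8 positive. Medians were -0.08 for mature olfactory neuron markers, 0.05 for epithelial markers and 1.62 for skeletal muscle markers. The part of these cells was not tested.

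**Figure D2:**
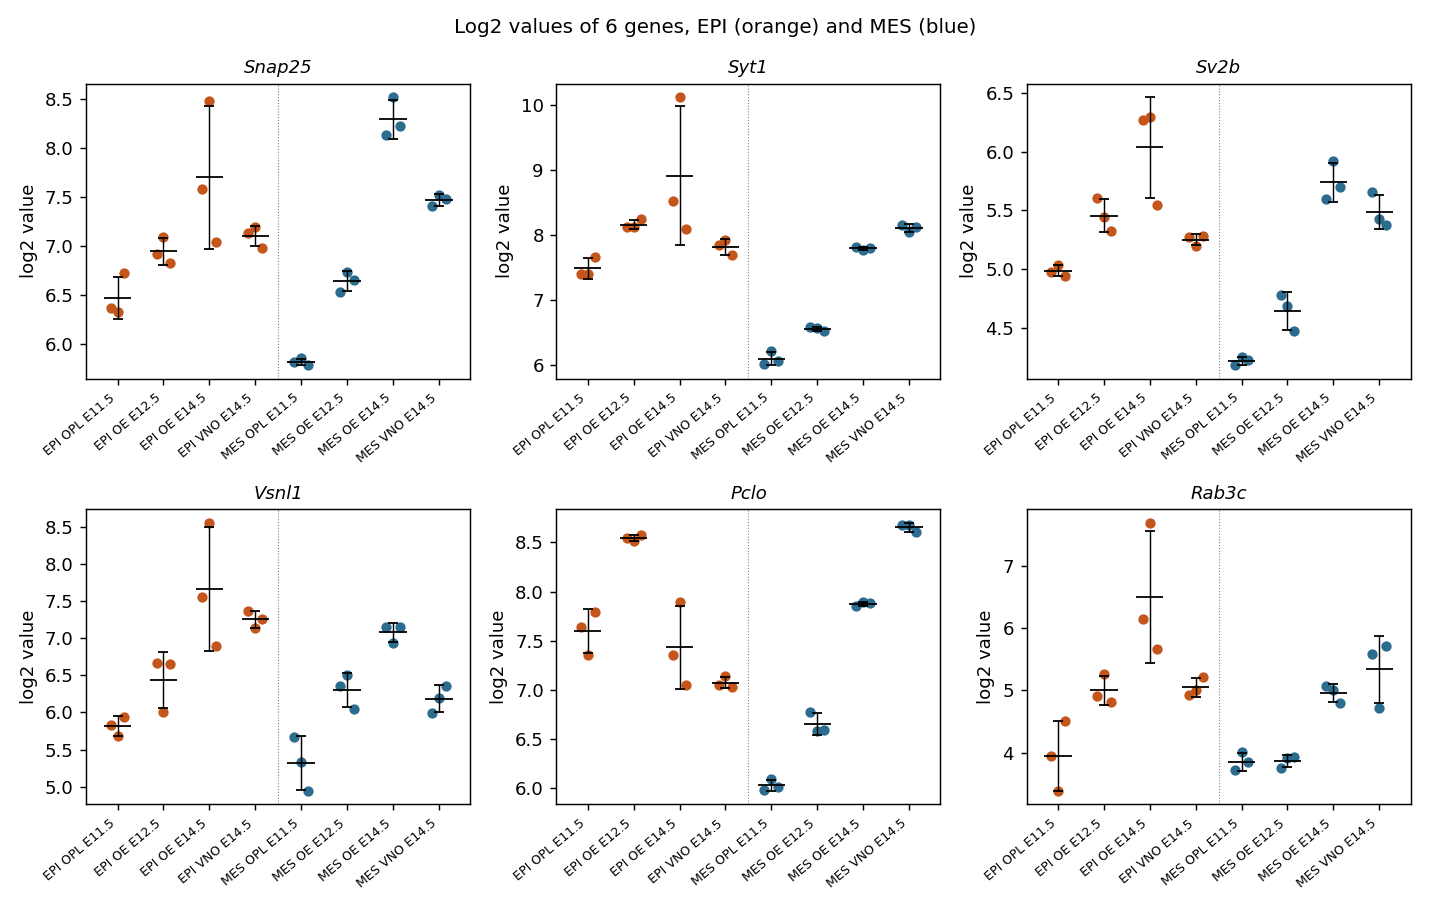
Log2 values of Snap25, Syt1, Sv2b, Vsnl1, Pclo and Rab3c on each array of the 8 time-course groups (points; line, mean; bars, SD, n = 3; EPI orange, MES blue). Snap25, Syt1, Sv2b and Pclo climb in the MES from E11.5 to E14.5 with close replicates, while the EPI OE at E14.5 is spread and Pclo in the EPI is highest at E12.5. Axes do not start at 0 and differ between genes.

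In the MES the replicates were close for many members. Among the exceptions were Rab3c in the VNO (standard deviation 0.54) and, in the OPL, Unc13a (0.46) and Vsnl1 (0.37). At E12.5 none of the 35 members was called against E11.5, in either direction, while 1.3% of all genes were called higher and 0.196% lower. At an unadjusted p under 0.05 limma gave 14 members higher and 3 lower, where 30.3% of all genes had such a p in either direction. Rank Products gave 0, and the deposited scale 1, against 1.44% of all genes. Vsnl1 differed by 0.99 (adjusted p = 0.0523), Snap25 by 0.82 (adjusted p = 0.00267), Pclo by 0.62, Syp by 0.60, Doc2b by 0.52 and Syt1 by 0.46. By E14.5, limma called 9 members higher in the MES of the OE than in the MES OPL, against 6.13% of all genes, and 11 in the MES of the VNO, against 7.15%. Both comparisons use the same 3 MES OPL arrays.

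Genes of the fusion and calcium-sensor group were called in both tissues, 5 of 9 in the OE and 4 of 9 in the VNO. The group counts the calcium sensor Vsnl1 beside the fusion proteins, and Vsnl1 was called in the OE only. Snap25 read 5.81, 5.86 and 5.79 in the MES OPL and 8.13, 8.52 and 8.22 in the E14.5 MES OE, a rise of 2.47 on the log2 scale or 5.54-fold (standard error 0.11, adjusted p = 9.94e-05). In the MES VNO it read 7.41, 7.52 and 7.48, and rose by 1.65 (standard error 0.06, adjusted p = 7.23e-05). The 3 groups did not overlap, and the MES OE was the highest. Syt1 read 6.01, 6.20 and 6.06 in the MES OPL. Its E14.5 values were 7.81, 7.77 and 7.79 (OE) and 8.15, 8.04 and 8.12 (VNO). Its rise was 1.70 (standard error 0.07, adjusted p = 6.88e-05) in the OE and 2.02 (standard error 0.08, adjusted p = 7.34e-05) in the VNO. Here the VNO arrays were the highest. Stx1a, the SNARE partner of Snap25, rose by 1.01 and 1.21. Syt4, an atypical synaptotagmin of secretory vesicles, rose by 1.03 and 1.46. Vsnl1 rose by 1.76 in the MES OE, where it read 7.16, 6.94 and 7.15 (adjusted p = 0.00176), and in the MES VNO it read 6.0, 6.20 and 6.36 and was not called.

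At the active zone, Pclo read 5.98, 6.09 and 6.01 in the MES OPL and 6.78, 6.58 and 6.59 at E12.5. Its E14.5 values were 7.85, 7.90 and 7.88 (OE) and 8.68, 8.68 and 8.60 (VNO). In this order each of these MES groups lay above the one before it without overlap. The rises from E11.5 were 1.85 (standard error 0.05, adjusted p = 2.99e-05) and 2.63 (standard error 0.06, adjusted p = 3.63e-05), the latter a 6.18-fold difference. Rab3c, counted in the active zone group with Rab3a and Rab3b, rose by 1.10 and 1.48. In the MES VNO it read 5.59, 4.72 and 5.71, and in the MES OPL 3.72, 4.01 and 3.85. As deposited its OPL values, 4.07 to 4.31, lay well below the array medians there, 7.05 to 7.15. Rims2, a RIM scaffold that links vesicles to calcium channels, rose by 1.51 in the MES VNO. There it read 7.37, 7.23 and 7.39 against 5.86, 5.74 and 5.86 in the OPL. In the MES OE Rims2 read 6.54, 6.67 and 6.61, above the OPL but with a difference below the size limit. Of the vesicle proteins, Sv2b rose by 1.52 and 1.27 and Syp by 1.30 and 1.82, while Snap91 (1.16) and Syn2 (1.11), a synapsin that tethers vesicles, were called in the MES VNO. Sv2b read 4.18, 4.25 and 4.22 in the MES OPL, and at E14.5 it read 5.60, 5.92 and 5.70 (OE) and 5.65, 5.43 and 5.38 (VNO). The 2 E14.5 groups overlapped, and both lay above the OPL.

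The adhesion and postsynaptic genes were not called in the MES, with 0 of 4 and 0 of 4 in each E14.5 comparison, with medians of 0.34 and 0.16 for the OE, then 0.24 and 0.17 for the VNO. The fusion and calcium-sensor genes, Vsnl1 among them, had medians of 1.01 and 0.89, with 5 and 4 of 9 called. Over all 35 members the medians were 0.43 and 0.62, against 0.01 and 0.03 over all genes. The arrays at E14.5 lay all above those at E11.5 for 25 and 27 members, against 31.7% and 31.4% of all genes. None was called lower by limma in either tissue, against 1.63% and 2.17% of all genes (3 and 1 at an unadjusted p under 0.05, 0 and 0 by Rank Products). Of all genes, 55.7% and 53.4% had such a p in either direction. The deposited scale gave 8 and 11 called higher, against 5.06% and 6.35% of all genes, Rank Products 6 and 7, against 3.23% and 3.34%, and leaving out 1 array 9 to 10 and 11 to 13. From the other synaptic genes 10 and 16 of 68 were called higher. They were led by the vesicle priming genes Cadps (2.09 and 2.59) and Cadps2 (1.74 and 2.34), by Apba1, or Mint1, (1.67 and 1.90), and by Ap3b2 (1.51 and 2.23). In that list 3 and 4 of 17 postsynaptic genes were called (medians 0.19 and 0.30), with 2 and 5 of 29 vesicle and fusion genes (0.07 and 0.15). The others were 4 and 5 of 14 active zone genes and 1 and 2 of 8 endocytosis genes. The 4 postsynaptic members are thus too few to set postsynaptic genes apart.

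Markers of neurons and of epithelium moved with them in the MES. The neuron sum was 2849 to 2931 in the MES OPL and 4041 to 4087 at E12.5, and at E14.5 it reached 6937 to 6982 (OE) and 9251 to 9668 (VNO), with 9 and 12 of 13 markers called higher at E14.5. The epithelial sum went from 1832 to 1865 in the OPL to 4965 to 5022 and 6038 to 6208, with 7 of 8 called in both, and 6 and 7 of 10 mature olfactory neuron markers were called. The mesenchyme sum was 14561 to 15077 in the OPL and 26798 to 26884 and 22799 to 23215 at E14.5. The red cell sum was 2961 to 3077 in the OPL and 596 to 731 and 627 to 698 at E14.5, with 4 and 5 of 6 called lower, and 2 of 6 skeletal muscle markers were called higher in each tissue. The part of these cells in the rise of the synaptic genes was not tested.

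EPI and MES were next compared at each stage. In the OPL at E11.5, 6 members were called higher in the EPI, against 3.93% of all genes, and at E12.5 9 were, against 3.46%. All 6 of the first list were among the 9 of the second (100% of the one, 66.7% of the other), and these are Pclo, Syt1, Syt4, Rims2, Syp and Syn2. Pclo differed by 1.57 (standard error 0.13, adjusted p = 0.00215) at E11.5 and by 1.89 (standard error 0.08, adjusted p = 6.34e-04) at E12.5, and Syt1 by 1.39 and 1.61. The other 4 lay between 1.04 (Syn2) and 1.37 (Syt4) at E11.5 and between 1.21 (Syn2) and 1.53 (Syp) at E12.5. At E12.5 Rab3c (1.13), Unc13a (1.03) and Snap91 (0.91) were called as well. In the listed genes the EPI and MES arrays did not overlap.

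These counts depend on the scale. As deposited, the median of all genes stood 0.65 lower in the EPI at E11.5, and there 0 members were called higher and 5 lower, with 25.6% of all genes called lower. The differences of the 6 genes stayed positive, from 0.29 (Syn2) to 0.89 (Pclo). At E12.5 the deposited median was 0.20 lower and 7 members were called higher, against 2.45% of all genes, and 0 lower. None was called lower after quantile normalization by limma at E11.5 or E12.5, against 1.19% and 2.09% of all genes (5 and 5 at an unadjusted p under 0.05, 0 and 0 by Rank Products). Such a p was found for 46.7% and 44.4% of all genes in either direction. Rank Products called 3 and 5 higher, against 1.72% and 1.56%. Without 1 array the count of higher members stayed at 6 at E11.5 and ran from 7 to 10 at E12.5. In the EPI 7 and 8 of 13 neuron markers and 7 and 6 of 8 epithelial markers were called higher on the same arrays. Of the other synaptic genes 9 and 10 were called higher, among them Cadps (1.57 and 1.35) and Slc17a6, the vesicular glutamate transporter 2 (1.37 and 1.42).

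At E14.5 this order no longer held for all of them. In the OE 4 members were called higher in the EPI, against 6.5% of all genes: Cplx1 (1.65, adjusted p = 0.0444), Syt4 (1.47, adjusted p = 0.0314), Syn2 (1.20, adjusted p = 0.0139) and Rab3b (0.94, adjusted p = 0.0173). Rab3c (1.54) and Syngr3 (1.40) were next in size and were not called. Cplx1 read 6.52, 7.87 and 5.92 in the EPI and 5.19, 5.20 and 4.96 in the MES. The count fell to 0 without MES OE E14.5 replicate 3, to 1 without its replicate 2 and to 2 without its replicate 1 or EPI OE E14.5 replicate 1, and was 9 without EPI OE E14.5 replicate 3, and without replicate 2 of the latter 3 were called lower. As deposited 0 were higher and 2 lower, where 6.44% of all genes were called lower and their median was 0.20 lower in the EPI. After quantile normalization limma called none lower, against 1.39% of all genes (2 at an unadjusted p under 0.05, 0 by Rank Products), and Rank Products called 1 higher, against 1% of all genes. An unadjusted p under 0.05 by limma was found for 49.5% of all genes in either direction.

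In the VNO at E14.5, 3 members were lower in the EPI than in the MES, against 2.02% of all genes, and 1 was higher, against 6.72%. Pclo read 7.05, 7.14 and 7.03 in the EPI and 8.68, 8.68 and 8.60 in the MES, and the difference was -1.58 (standard error 0.07, adjusted p = 3.11e-04). Nlgn2, the neuroligin of inhibitory synapses, read 8.43, 8.31 and 8.37 against 9.53, 9.64 and 9.51, a difference of -1.19 (adjusted p = 4.41e-04). Vamp2, or synaptobrevin 2, differed by -1.03 (adjusted p = 9.79e-04). Vsnl1 was the exception, at 7.37, 7.14 and 7.26 against 6.0, 6.20 and 6.36, a difference of 1.07 (adjusted p = 0.00154). The fractions did not overlap in any of these genes. Dnm1, a dynamin of vesicle endocytosis, gave -0.88 and Erc2, an active zone scaffold, -0.82, both under the size limit. The median member differed by -0.29, the median of all genes by 0.17, and 20 members had EPI arrays all below the MES arrays, against 20.4% of all genes. The split was 0 higher and 6 lower as deposited, where 5.25% of all genes were lower, and Rank Products made no call. All 6 skeletal muscle markers were higher in the EPI VNO, with sums of 2136 to 2354 against 439 to 529, and 4 of 13 neuron markers were called lower there.

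Whether the change with age differed between fractions was tested directly as an interaction, on 12 arrays for each tissue. For the VNO, 10 of 35 members rose less, or fell, in the EPI relative to the MES, against 4.38% of all genes, and 0 the other way, against 7.74%. At an unadjusted p under 0.05 by limma there were 2 the other way, and the share of all genes with such a p was not counted. The difference was largest for Pclo, with -0.52 in the EPI and 2.63 in the MES, so that the changes differed by -3.15 (standard error 0.14, adjusted p = 2.33e-06). Rims2 followed with -0.43 and 1.51, a difference of -1.94 (adjusted p = 3.97e-05), and Syt1 with 0.33 and 2.02, a difference of -1.68 (adjusted p = 2.48e-05). Syp, Erc2, Snap25, Syt4, Sv2b, Snap91 and Stx1a had differences from -1.04 to -0.95. For the OE the test called 3 members. Pclo changed by -0.16 in the EPI and 1.85 in the MES, a difference of -2.01 (standard error 0.26, adjusted p = 8.18e-04), and Snap25 by 1.23 and 2.47, a difference of -1.24 (adjusted p = 0.0465). Cplx1 ran the other way, with 1.36 and -0.30, a difference of 1.66 (adjusted p = 0.0446). Of all genes 5.5% were called higher and 2.45% lower in that test. As deposited, the VNO test called 2 higher and 3 lower, against 24.6% and 2.08% of all genes, and the OE test 4 higher and 1 lower, against 14.4% and 1.27%. The VNO count of 10 went down to 7 without EPI OPL E11.5 replicate 3, and in the OE the count was 6 higher without EPI OE E14.5 replicate 3 and 2 higher and 3 lower without replicate 2. In the OE, Pclo kept its call without any 1 of the 12 arrays. Cplx1 lost it without each of 10 of them, with 0 called higher (adjusted p from 0.0528 to 0.0895), and kept it without EPI OE E14.5 replicate 2 (1.11, adjusted p = 0.0126) or 3 (2.08, adjusted p = 0.00741). Snap25 lost it without each of 11 and kept it without replicate 2 of that group (-1.63, adjusted p = 0.00221).

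**Figure D3:**
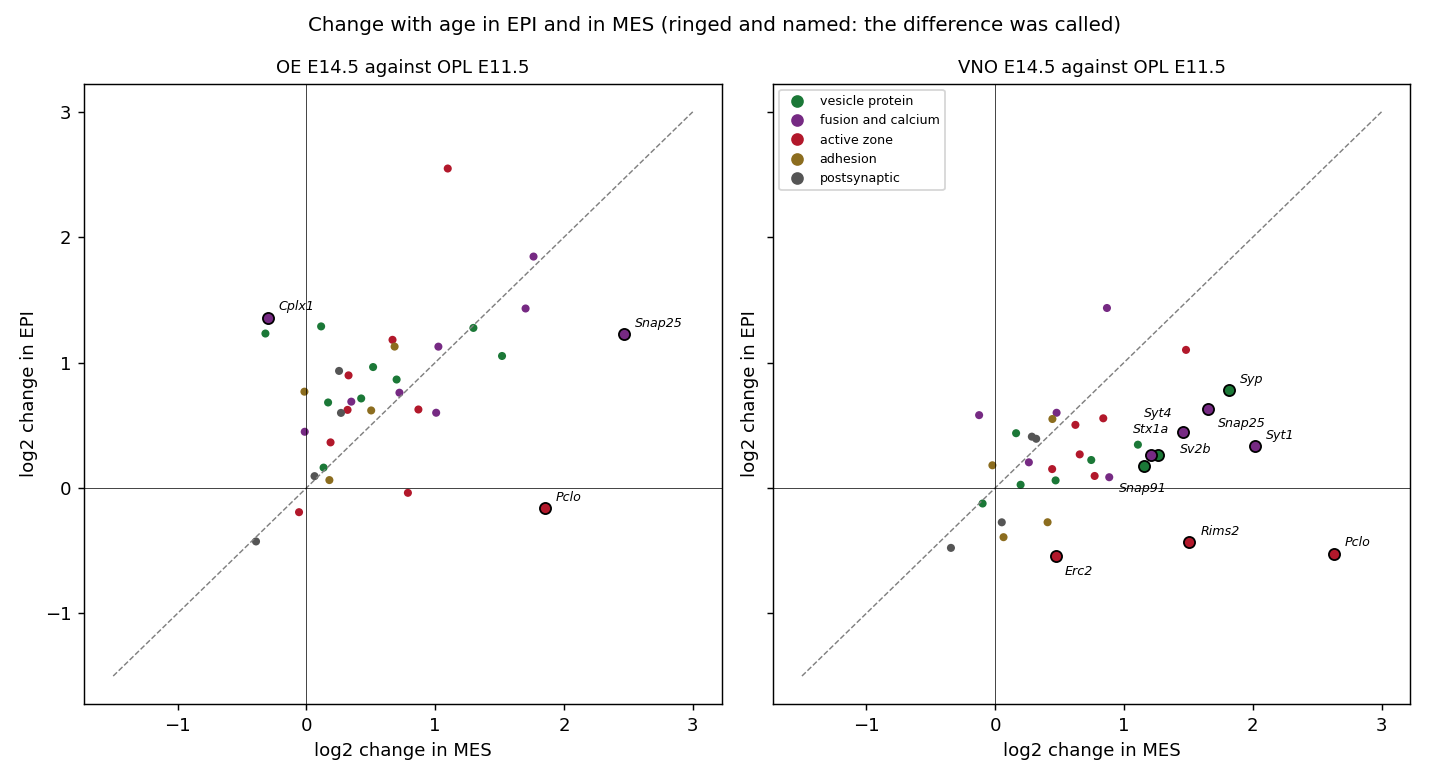
Log2 change between the E11.5 OPL and the E14.5 OE (left) or VNO (right), in the MES (x axis) and in the EPI (y axis), for 35 synaptic genes coloured by role. Ringed and named genes are those whose changes differed between the fractions by the interaction test, 3 on the left and 10 on the right; the dashed line marks equal change, and in the VNO panel all 10 lie below it.

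In the Dlx5 comparison the targeted gene was read first. Dlx5 was at 10.95, 10.98 and 10.97 in the WT and at 10.33, 10.30 and 10.11 in the Dlx5-null arrays, with no overlap, a difference of -0.72 (adjusted p = 0.117). The null allele can still give transcripts from what remains of the locus, and the cluster was not resolved by exon, so this reading does not check the deletion. None of the 36 synaptic genes was called by limma in either direction (3 higher and 11 lower at an unadjusted p under 0.05), and of all 14860 genes 15.6% had such a p, 0% were called higher and 0.00673% lower. Rank Products called 3 members lower, Vsnl1, Snap25 and Sv2b, against 0.579% of all genes, and 0 higher. Among clusters in the brighter part of the array, limma called Vsnl1 lower.

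The members with the largest differences were lower in the mutant. Vsnl1 read 9.47, 9.79 and 9.64 in the WT and 8.40, 8.25 and 8.25 in the Dlx5-null arrays, a difference of -1.34 (standard error 0.11, adjusted p = 0.0874). Sv2b read 9.04, 9.71 and 9.48 and then 7.23, 8.51 and 8.56, a difference of -1.31 (standard error 0.38, adjusted p = 0.249). Snap25 read 10.51, 11.07 and 10.92 and then 8.91, 9.75 and 9.91, a difference of -1.31 (standard error 0.28, adjusted p = 0.195). In all 3 genes the genotypes did not overlap, and the mutant replicates were close for Vsnl1 alone. Syt1 read 10.53, 10.62 and 10.43 and then 9.04, 9.52 and 9.82, also without overlap (-1.07, standard error 0.20, adjusted p = 0.163). Rab3c differed by -0.88 with overlapping arrays, and Snap91 by -0.81 without overlap (adjusted p = 0.177). Of the 36, 31 had a negative difference and 14 had mutant arrays all below the WT arrays, against 12.6% of all genes, while 3 were all above, against 13.2%. The median member differed by -0.18 and the median of all genes by 0.03. By role the medians were -0.34 for vesicle proteins and -0.29 for the fusion and calcium-sensor group, which counts Vsnl1. They were -0.33 for the active zone group, which counts the Rab3 genes, -0.07 for adhesion and -0.09 for postsynaptic genes.

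Replicate 1 of the mutant was the lowest of its group for 21 of the 36 genes, and WT replicate 1 was the lowest of its own group equally often. Syp read 8.40, 9.46 and 9.43 against 9.76, 9.65 and 9.55, and Pclo 9.33, 10.07 and 10.13 against 10.23, 10.31 and 10.42. Replicate 1 alone lay far below the WT in both. Without it the differences were -1.39 for Vsnl1, -1.0 for Snap25, -0.87 for Sv2b, -0.86 for Syt1, -0.21 for Syp and -0.22 for Pclo, none of them called, and 29 of 36 members remained negative. The neuron markers summed to 37201 to 40572 in the WT and to 17928, 28470 and 28964 in mutant replicates 1 to 3, with a median difference of -0.62 over 13 genes, 12 of them negative. The mesenchyme markers summed to 13765 to 15200 and to 23912, 22251 and 16829, all 8 with a positive difference. The epithelial markers summed to 19610 to 19909 and to 11735, 17501 and 19717. The markers of mature olfactory neurons summed to 3250 to 3584 in the WT and 2063 to 2682 in the mutant (median -0.45 over 10 genes), and those of glia to 7783 to 11268 and 3793 to 4707 (median -0.12 over 5), neither with overlap. None of these 5 lists held a called gene, and their part in the lower synaptic values was not tested. Of 69 other synaptic genes 0 were called, and their median was -0.07.

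**Figure D4:**
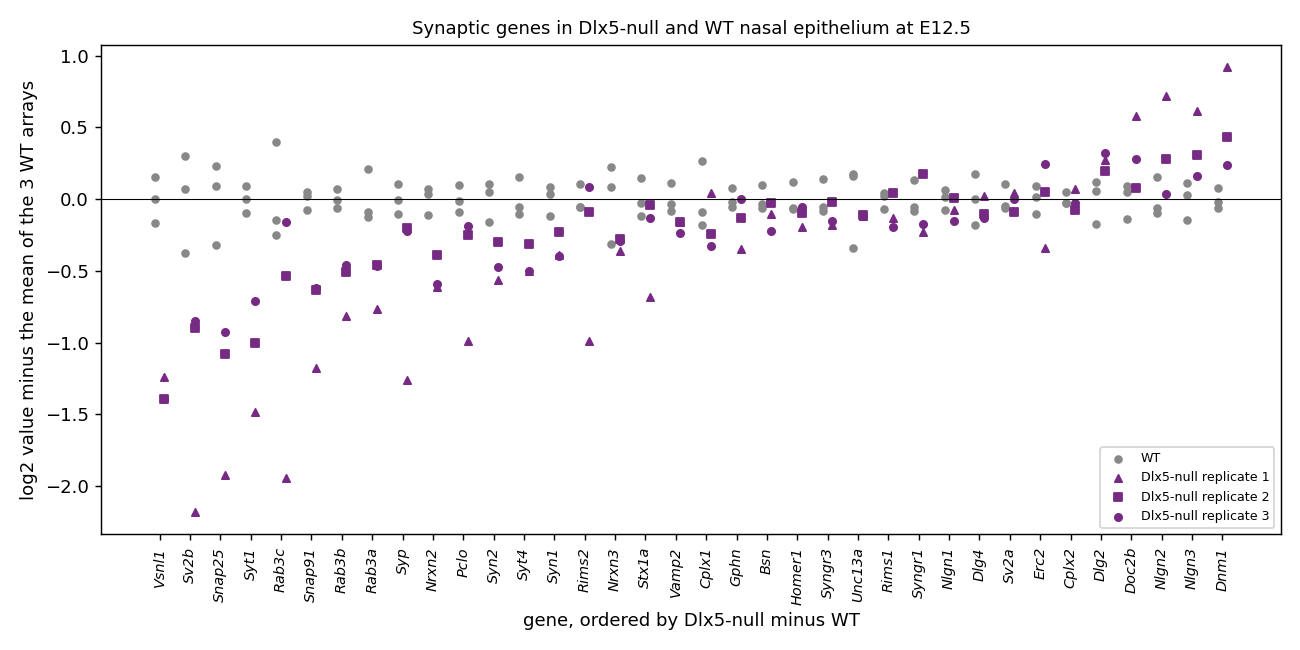
Log2 values of 36 synaptic genes in WT (grey) and Dlx5-null (purple, one symbol per replicate) tissue at E12.5, each minus the mean of the 3 WT arrays, with genes ordered by the mean difference. The mutant points of Vsnl1, Sv2b, Snap25 and Syt1 all lie below those of the WT. Mutant replicate 1 (triangles) is the lowest of its group for 21 of the 36 genes, a count that WT replicate 1 shares within the WT.

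Paralogues differed in these values. In the MES VNO, Sv2b rose by 1.27 and Sv2a differed by 0.16, Syn2 rose by 1.11 and Syn1 differed by 0.47, and Rims2 rose by 1.51 and Rims1 differed by 0.62. Of the Rab3 genes there, Rab3c rose by 1.48 with spread VNO arrays, with 0.84 for Rab3a and 0.44 for Rab3b. In the Dlx5-null arrays, Sv2b differed by -1.31 and Sv2a by -0.02. The differences between paralogues were not themselves tested. Over the 13 comparisons, 17 of the 36 measured members were called at least once. By group these were 4 of 9 vesicle proteins, 7 of 9 fusion and calcium-sensor genes, Vsnl1 among them, and 5 of 9 genes of the active zone group. The last group counts the Rab3 genes, and Rab3b and Rab3c were among its called genes. The rest were 1 of 5 adhesion genes, which was Nlgn2, and 0 of 4 postsynaptic genes. Dlg4, which encodes PSD-95, the main scaffold of excitatory postsynapses, read 8.60, 8.56 and 8.60 in the MES OPL and 8.84, 8.94 and 8.94 in the MES VNO. Homer1, which links group I metabotropic glutamate receptors to calcium stores, read 7.77, 7.85 and 7.78 and then 7.62, 7.31 and 7.43. Dlg4 lay above and Homer1 below its OPL arrays without overlap, each by less than the size limit.

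The 19 measured members without a call had differences of several kinds. A first kind passed the test on p but stayed under the size limit. Nlgn1, the neuroligin of excitatory synapses, read 5.91, 5.78 and 5.76 in the EPI OE at E12.5 and 6.46, 6.78 and 6.65 at E14.5, a difference of 0.81 (adjusted p = 0.00715) with no overlap. Nlgn3, a neuroligin found at both excitatory and inhibitory synapses, was at -0.71 for EPI against MES in the OPL (adjusted p = 0.00861). Syngr1, a vesicle protein related to Syp, differed by 0.75 (adjusted p = 0.00765) and Bsn, which encodes bassoon, the partner of piccolo, by 0.66 (adjusted p = 0.0168), both in the MES of the VNO against the OPL. Rab3a differed by 0.84 there (adjusted p = 7.62e-04), and Dnm1 by -0.88 for EPI against MES in the VNO (adjusted p = 8.64e-04). A second kind had large differences with wide spread in the EPI OE at E14.5, as Sv2a, Syngr3, Rab3a and Nrxn3 did above. Dlg4, or PSD-95, belongs here with 0.93 against the EPI OPL (adjusted p = 0.0504). Of the others, Cplx2, a complexin, lay between -0.25 and 0.45 over the 12 time-course comparisons and Gphn, which encodes gephyrin, the scaffold of inhibitory postsynapses, between -0.37 and 0.30. Dlg2, or PSD-93, lay between -0.19 and 0.60, and in the Dlx5-null arrays it read 8.11, 8.03 and 8.16 against 7.66, 7.89 and 7.95. It was thus among the 5 of 36 members with a positive difference there. Dnm1 was another, with 11.24, 10.76 and 10.56 against 10.30, 10.26 and 10.40 (0.53, adjusted p = 0.283). Nrxn2, a presynaptic adhesion protein measured on the Dlx5 arrays only, differed by -0.53 (adjusted p = 0.172).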

How the data were processed

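RNA of mouse embryonic olfactory tissue was hybridized to Affymetrix Mouse Exon 1.0 ST arrays, 30 in all. The authors deposited log2 expression values per transcript cluster, summarized and normalized with RMA (per the labels' processing notes, which also name build mm9), and their methods ran RMA separately on the 6 arrays of each comparison. Which arrays were normalized together in the deposited table is not given in the sources used here. Because array medians differed between groups, the log2 values were quantile-normalized over the 24 time-course arrays and over the 6 Dlx5 arrays apart. Each of 13 comparisons was fitted with limma 3.58.1 (R 4.3.3; lmFit and eBayes, two-sided) on its 6 arrays, with Benjamini-Hochberg adjustment over all 23238 clusters (23332 on the Dlx5 arrays). The thresholds (adjusted p up to 0.05, log2 difference of 0.9 or more) take their values from the study, but not its test. Its methods set the 0.05 limit on Rank Products. The 0.9 limit is given in its results, for the time course and as a fold-change. Comparisons that use a group in common share its arrays. Genes come from the platform's annotation: of 23339 clusters 14996 carry 1 symbol, 1019 several and 7324 none, and a gene with several clusters was read from the one of highest mean.

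The 2 interaction fits used 12 arrays each. Each replicate was a pool of embryos, so each p-value reflects how far such pools vary, and the number of arrays limits the precision. The alternatives were the deposited scale, quantile normalization over the arrays compared, median centring, brighter clusters only, a replicate block, Rank Products (100 permutations, proportion of false positives at most 0.05, same size limit) and leaving out each array. Scripts were tested on simulated data. The members and lists were chosen with earlier results of these data known. Named were all called members up to 8 in each direction, the 6 of largest difference where fewer than 6 were called, Snap25, Syt1, Sv2b and Vsnl1 throughout, paralogues, and 2 to 4 called genes of the other synaptic list; other genes were named after their values were seen. Summed signals are sums of linear values over the measured genes of a list.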

Additional observations from a re-analysis of the deposited data

Results flagged for a closer look

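Changes with age differed between EPI and MES by a test of the difference itself, given as the EPI change minus the MES change on the log2 scale. Between the E11.5 OPL and the E14.5 OE these were Snap25 at -1.24, Cplx1 at 1.66 and Pclo at -2.01. Between the E11.5 OPL and the E14.5 VNO the vesicle proteins Snap91 at -0.99, Sv2b at -1.0 and Syp at -1.04 were among them, with the fusion genes Snap25 at -1.02, Stx1a at -0.95, Syt1 at -1.68 and Syt4 at -1.01. The active zone genes Rims2 at -1.94, Pclo at -3.15 and Erc2 at -1.02 completed the list. The OE values rest on the EPI OE at E14.5, whose replicates 2 and 3 stood apart.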

How the results depend on the processing

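For the called and the largest members of each comparison, all 1276 values under the alternatives kept their direction. Part of them could not have changed it, since Rank Products, brighter clusters and the replicate block reuse the difference of the main fit. These members were also picked for being called or largest, so the total is no measure of robustness. What moved was the count of members called. As deposited, the counts of higher members were 19 in the E12.5 EPI, 14 in the EPI OE and 6 in the EPI VNO at E14.5 against the OPL, 1 in the E12.5 MES, and 0 for EPI against MES in the OPL, E14.5 OE and the VNO. The lower counts of those last 3 were 5, 2 and 6, and the interaction tests gave 4 higher and 1 lower in the OE and 2 higher and 3 lower in the VNO. With median centring the E12.5 EPI gave 1 (1.36% of all genes), the E14.5 EPI OE 7 (9.12%), the E12.5 MES 1 (1.17%), EPI against MES in the VNO 1 lower (1.36%), and the interactions 1 lower in the OE (1.84%) and 5 lower in the VNO (3.73%). Quantile normalization over the arrays compared gave 8 in the E14.5 EPI OE (10.7% of all genes) and 1 lower for EPI against MES in the OPL (1.28%). With brighter clusters only, fewer members were tested, and the counts were 0 in the EPI VNO (8.21% of all genes), 1 higher for the E14.5 EPI OE against E12.5 (6.08%), 4 in the MES OE (4.93%), 5 in the MES VNO (5.87%), and 0, 5 and 0 higher for EPI against MES in the OPL, E12.5 OE (3.16%) and the VNO, with 1 lower in the Dlx5-null arrays (0.0712%). Rank Products gave 0 in the E12.5 EPI, 2 in the EPI OE and 0 in the EPI VNO at E14.5, 0 lower for the E14.5 EPI OE against E12.5, 7 in the MES VNO, 3, 5, 1 and 0 higher for EPI against MES in the OPL, E12.5 OE, E14.5 OE and the VNO, 0 lower in the last, and 3 lower in the Dlx5-null arrays.

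Same-numbered replicates did not deviate together, with correlations from -0.17 to 0.28 and no comparison with all 3 above 0.1, so the numbers were not taken as pairs. With a replicate block the counts were 2 in the E14.5 EPI OE against the OPL (8.78% of all genes), 1 higher for it against E12.5 (9.59%), 2 higher for EPI against MES in E14.5 OE (5.39%), and 0 higher and 1 lower (2.38%) in the OE interaction.

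Leaving out 1 array, the counts of higher members ran from 0 to 3 in the E12.5 EPI, 0 to 17 in the EPI OE and 1 to 2 in the EPI VNO at E14.5, 0 to 6 for the E14.5 EPI OE against E12.5, 9 to 10 in the MES OE, 11 to 13 in the MES VNO, 7 to 10 for EPI against MES at E12.5 and 0 to 9 in E14.5 OE. Lower counts ran from 0 to 1 in the OPL, 0 to 3 in E14.5 OE and 3 to 4 in the VNO. The OE interaction ran from 0 to 6 higher and 1 to 3 lower, and the VNO interaction from 7 to 10 lower. The share of all genes called was not counted in these fits, and the causes were not tested. With 3 arrays a group an exact permutation test could not go below 0.1.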
